A study of Mus musculus with 6 samples.

Results

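Base excision repair removes small lesions from DNA, such as oxidised bases, uracil and sites that have lost their base. A DNA glycosylase cuts out the damaged base, an endonuclease opens the strand beside the empty site, and a polymerase and a ligase close the gap on a scaffold protein. The part of this pathway described here comprised 10 genes, chosen by name from the 32285 genes of the count table. They were the glycosylases for oxidised bases Ogg1, Mutyh, Neil1, Neil2 and Neil3, the uracil glycosylase Ung, the AP endonuclease Apex1, the break sensor Parp1, the scaffold Xrcc1 and the gap-filling polymerase Polb. All 10 were found, and all 10 had enough counts to be tested. Oxidised guanine, the substrate of Ogg1, is a common lesion of oxidative stress, and in the germline an unrepaired base can be passed to offspring. Frozen cells have no active repair, so lesions gained in storage are met by the enzymes present after thawing.

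The samples were germline stem (GS) cells, cultured mouse spermatogonia with stem cell activity that grow on mouse embryonic fibroblasts in medium with GDNF and FGF2. All 6 libraries came from strain DBA/2 with genotype DBA/Tg14(act-EGFP-OsbY01), derived from testes of pups 2 to 3 days old, so the EGFP transgene was carried by both groups. Cells were frozen for 6 months on the International Space Station (Space GS cells, 3 libraries) or on Earth (Ground GS cells, 3 libraries), and the study states that the cells for RNA-seq were used a day after thawing, before any passage. Unfrozen cells were not analysed here, so a change common to all frozen cells could not be measured. The groups follow the library titles. The treatment label of every library says the opposite, so each direction below would change sign if that label were right. No label states which libraries come from separate cultures, so p-values measure the spread between these libraries, which may be partly technical.

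Libraries held 19015985 to 24110916 counts, and mitochondrial transcripts took 2.51% to 11.5% of them. Spermatogonial markers were abundant (12 of 12 tested, summed level 2795 to 2917 CPM, counts scaled to a common library size with TMM factors, in Ground and 2863 to 2917 in Space). The 14 feeder fibroblast markers summed to 1062 to 1077 CPM in Ground and 853 to 1096 in Space, with 13 of 14 lower in Space and 0 past the test. Feeder cells also use base excision repair, so in these bulk samples fewer cells of a type and less RNA per cell cannot be told apart. The 8 Sertoli cell, 8 macrophage and 5 endothelial markers summed to at most 30.3, 24.1 and 22.0 CPM, and Fshr had 0 counts in every library. The libraries resembled each other across the groups. Ground-1 was nearest to Space-3, Ground-2 to Space-2 and Space-1 to Ground-3. Counts within these pairs differed by 1.53, 1.95 and 2.32 times the sampling noise, against 5.58 to 15.2 times for every other pair, so no library was a copy of another.

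The first comparison was between the enzymes themselves, to see which of the 10 members had the highest levels in these bulk GS cell cultures with feeder cells. Levels between genes were set per length, as CPM per kilobase of annotated exon, averaged over the 6 libraries. Parp1, which binds strand breaks and makes poly(ADP-ribose), and Apex1, which cuts the strand at sites without a base, were far above the rest with 166 ± 10.4 and 163 ± 11.4 CPM per kilobase (SD, n = 6). Of the summed level of the 10 members, Parp1 took 36.6% to 39.1% and Apex1 36.4% to 38.7% per library. Because 61.7% of the Apex1 exon bases are shared with Pip4p1 on the opposite strand, the level and share of Apex1 are uncertain, as described below. Ung, Xrcc1 and Polb formed a middle group at 31.3 ± 3.15, 28.6 ± 1.20 and 20.0 ± 1.04 CPM per kilobase. Mutyh, which removes adenine paired with oxidised guanine, Neil2 and Ogg1, which removes oxidised guanine itself, followed at 8.71 ± 1.01, 8.23 ± 0.201 and 7.65 ± 0.404. Neil3 and Neil1 were lowest at 2.05 ± 0.120 and 1.57 ± 0.216 CPM per kilobase, and Parp1 exceeded Neil1 by a geometric mean of 106-fold.

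**Figure D1:**
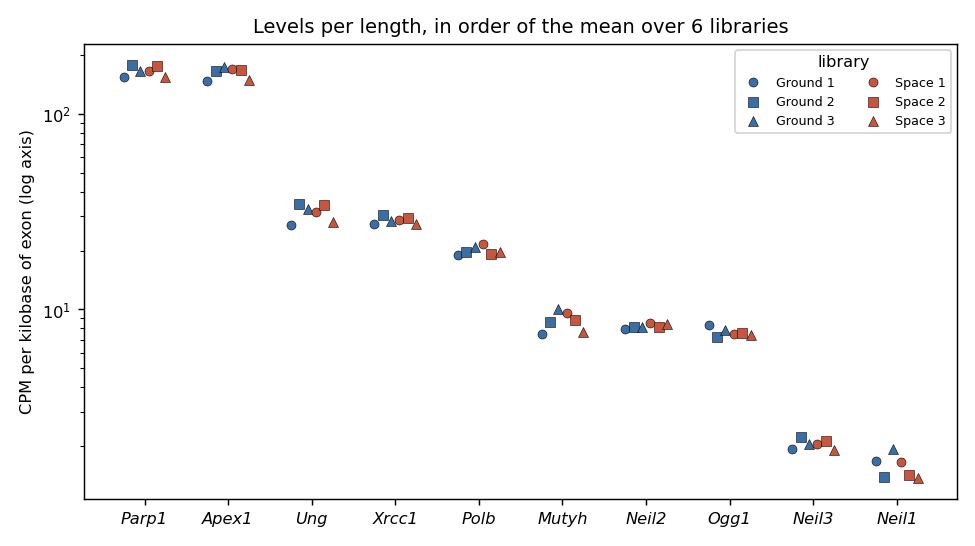
Level of each member per library as CPM per kilobase of exon (log axis), ordered by the mean over 6 libraries, with colour for group and shape for replicate number. Parp1 and Apex1 lie at 166 and 163 and the members fall in steps to Neil1 at 1.57, while Ground and Space points of each gene lie on top of each other.

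Within each library the order had 5 steps that held in 6 of 6 libraries. These were Apex1 over Ung by 5.22-fold, Xrcc1 over Polb by 1.43-fold, Polb over Mutyh by 2.31-fold, Ogg1 over Neil3 by 3.74-fold and Neil3 over Neil1 by 1.31-fold. Each had the smallest p that 6 libraries allow (2-sided exact sign-flip permutation p = 0.0313, adjusted over 9 neighbouring pairs 0.0563), which does not pass the threshold after adjustment. The order, and so the pairs and their direction, came from these same 6 libraries, which also resemble each other in pairs. The p-values therefore describe how steady the order was between the libraries and are no independent test of it. The other 4 neighbours changed places in at least 1 library. Parp1 exceeded Apex1 in 4 of 6 libraries (exact permutation p = 0.406), Ung exceeded Xrcc1 in 5 of 6 (exact permutation p = 0.0625), Mutyh exceeded Neil2 in 4 of 6 (exact permutation p = 0.344) and Neil2 exceeded Ogg1 in 5 of 6 (exact permutation p = 0.0938). The mean log2 difference was smaller than its SD for Parp1 over Apex1 (0.03 ± 0.07) and Mutyh over Neil2 (0.07 ± 0.16), and larger for Ung over Xrcc1 (0.13 ± 0.10) and Neil2 over Ogg1 (0.105 ± 0.0986) (SD, n = 6). With the longest transcript as the length, Xrcc1 ranked above Ung and Neil2 above Mutyh. The size of the folds also depends on the length used. By the longest transcript Apex1 lay at 187 CPM per kilobase, Ung at 55.3, Xrcc1 at 66.0, Polb at 23.5 and Mutyh at 11.1. Ogg1 lay at 10.5, Neil3 at 3.69 and Neil1 at 1.74. Counts are summed per gene, so the nuclear and mitochondrial forms that genes such as Ung and Ogg1 make are not told apart.

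The promoters of the most abundant members and of the lowest are shown, with Ogg1 as the main oxidised guanine glycosylase, so that the level of each gene can be set beside the sequence before its start. Each is the 250 bases before the start of transcription in RefSeq (GRCm38.p6), where 8 of the 10 members had an entry. The positions were chr1:180568641-180568890 (plus strand), chr14:50924699-50924948 (plus strand), chr6:113326726-113326975 (plus strand) and chr9:57148306-57148555 (minus strand). Capitals mark matches on either strand to the GC box GGGCGG, the CCAAT box CCAAT and the TATA box TATAAA, which do not overlap each other.
Parp1: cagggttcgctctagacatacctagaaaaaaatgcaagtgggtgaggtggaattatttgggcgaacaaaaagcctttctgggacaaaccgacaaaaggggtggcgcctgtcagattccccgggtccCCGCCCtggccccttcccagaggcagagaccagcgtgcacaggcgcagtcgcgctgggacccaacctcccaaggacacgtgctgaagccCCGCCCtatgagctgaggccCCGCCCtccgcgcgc
Apex1: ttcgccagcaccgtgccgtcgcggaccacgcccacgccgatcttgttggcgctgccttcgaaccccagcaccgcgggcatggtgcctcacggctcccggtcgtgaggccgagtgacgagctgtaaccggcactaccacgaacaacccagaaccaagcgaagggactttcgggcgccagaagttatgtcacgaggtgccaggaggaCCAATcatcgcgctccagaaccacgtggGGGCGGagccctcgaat
Ogg1: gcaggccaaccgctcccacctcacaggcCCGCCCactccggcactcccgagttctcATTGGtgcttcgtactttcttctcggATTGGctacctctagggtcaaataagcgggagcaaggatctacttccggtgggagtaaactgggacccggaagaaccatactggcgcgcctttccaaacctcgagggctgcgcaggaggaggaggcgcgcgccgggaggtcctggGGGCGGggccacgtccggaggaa
Neil1: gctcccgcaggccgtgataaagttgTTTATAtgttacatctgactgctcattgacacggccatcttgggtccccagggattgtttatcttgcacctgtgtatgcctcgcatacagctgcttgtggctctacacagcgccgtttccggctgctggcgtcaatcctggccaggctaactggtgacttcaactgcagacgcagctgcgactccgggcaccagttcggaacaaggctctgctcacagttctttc
Parp1 had 3 GC boxes, Ogg1 had 2 GC boxes and 2 CCAAT boxes, and Apex1 had 1 of each. Neil1 had no GC box or CCAAT box and 1 TATA box sequence, on the opposite strand and near the end of the window farthest from the start. Of the 32841 promoters in the table, 32.7% held a GC box, 33.9% a CCAAT box and 12.4% a TATA box. The E2F core TTTCGCGC and the NRF1 core motif, in 0.256% and 0.783% of promoters, were not found in any of these windows. CpG dinucleotides numbered 16 in the Parp1 window, 28 in Apex1, 20 in Ogg1 and 12 in Neil1, against a median of 6 over all promoters. Of the members not shown, Ung had 2 GC boxes and 10 CpG. Mutyh had 2 GC boxes and 27 CpG in the first of its 2 windows, and no GC box and 2 CpG in the second. That second window (chr4:116814069-116814318, plus strand) lies inside the annotated gene, which starts at 116807723. The Xrcc1 window (chr7:24546449-24546698, plus strand) held no GC box and 5 CpG, but it lies inside the annotated gene, which starts at 24546289. It is not the sequence before that start, so it was not set beside the Xrcc1 level. Neil3 had no GC box and 8 CpG. These matches describe the sequence and are no evidence that a factor binds there.

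The second comparison asked whether the enzymes differed between Space and Ground GS cells, and no member passed the test. With edgeR's quasi-likelihood test over all 15104 genes past the filter, 0 of the 10 members had an adjusted p under 0.05, beside 0% of all genes. Every member had an adjusted p of 0.9999. At an unadjusted p under 0.05 the count was 0 of 10 members and 92 of all genes (0.609%). With no difference anywhere, a fraction of about 0.05 of the genes would be met, which is more than the 0.609% found. The unpaired test was therefore conservative in these data. Libraries of the same group differed more than the crossed pairs above, and that spread enters the error of the test. The absence of calls is therefore weak information on small differences. DESeq2 and limma-voom also called 0 genes, with 45 and 88 at an unadjusted p under 0.05 and 0 members among them. Of the members, 3 had a log2 fold change above 0 and 7 below, where 51.3% of all genes were below, although scaling by total counts, which put the median of all genes at 0.033, gave 8 above and 2 below. The split also turned on single libraries, with 8 above and 2 below without Space-3, 7 and 3 without Ground-2, 5 and 5 without Ground-3, 2 and 8 without Space-2, and 1 and 9 without Ground-1 or without Space-1. The median log2 fold change of the members was -0.0071, beside -0.0020 for all genes tested.

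**Figure D2:**
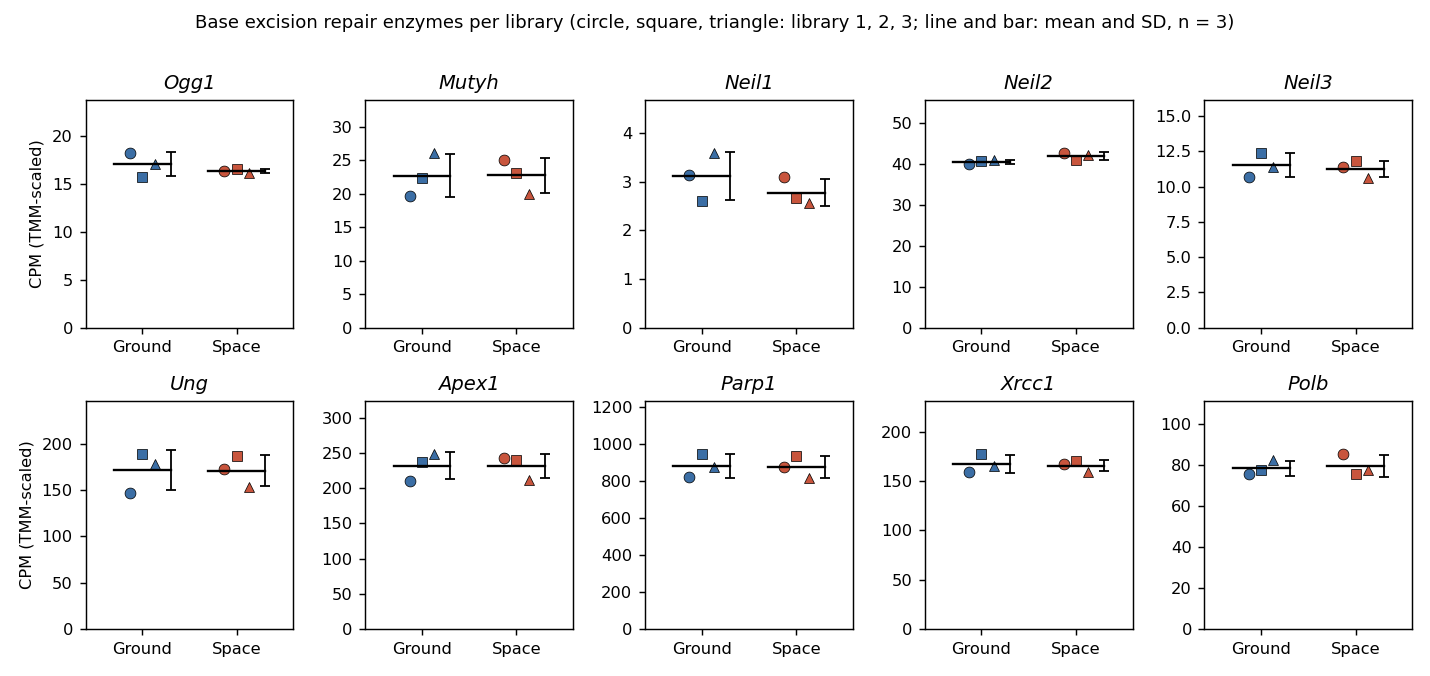
CPM after TMM scaling of the 10 members in each library (vertical axes start at 0), with the mean as a line and the SD as a bar for 3 Ground and 3 Space libraries. The groups overlap for every member except Neil2, where the lowest Space value lies just above the highest Ground value.

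Among the glycosylases for oxidised bases, Ogg1 (chromosome 6, 113326972 to 113335068) had 18.3, 15.8 and 17.1 CPM in the Ground libraries, in the order of their numbers, and 16.4, 16.6 and 16.2 CPM in the Space libraries. The 3 Space values lay inside the Ground range, with means of 17.1 ± 1.25 and 16.4 ± 0.214 CPM (SD, n = 3). The log2 fold change of Ogg1, Space over Ground, was -0.06 (SE 0.10, 95% interval -0.29 to 0.17). Ogg1 shares 10.6% of its exon bases with Camk1 on the opposite strand, and Camk1 had 21 to 53 counts per library against 297 to 445 for Ogg1. Whether counting used the strand is not given in the sources used here, so reads in shared bases cannot be assigned with certainty. Mutyh (chromosome 4, 116807723 to 116819440), the partner enzyme that acts when adenine has been placed opposite oxidised guanine, had 19.6, 22.4 and 26.2 CPM in Ground and 25.1, 23.1 and 20.0 in Space. Mutyh varied more within each group than between them, with 22.7 ± 3.28 and 22.7 ± 2.58 CPM (log2 fold change 0.00027, SE 0.14, interval -0.31 to 0.31).

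The NEIL enzymes remove oxidised pyrimidines and ring-opened purines. Neil1 (chromosome 9, 57142800 to 57148305) had 3.13, 2.61 and 3.59 CPM in Ground and 3.09, 2.66 and 2.56 in Space. Its mean of 2.77 ± 0.280 CPM in Space was below the 3.11 ± 0.493 in Ground (log2 fold change -0.17, SE 0.21, interval -0.66 to 0.32). Neil1 rested on 49 to 82 counts per library, the fewest of all members, and a change of up to 1.58-fold was within its interval. Neil2 (chromosome 14, 63182443 to 63193856) had 40.1, 40.7 and 40.9 CPM in Ground and 42.8, 41.0 and 42.1 in Space. All 3 Space values of Neil2 were above the Ground values, which holds for 1.61% of all genes tested. For 0 members did they lie below the Ground values, beside 1.98% of all genes, and Neil2 was the only one of the 10 without overlap. The gap was small, with means of 40.6 ± 0.465 and 42.0 ± 0.933 CPM, a difference of 3.44% (log2 fold change 0.05, SE 0.06, interval -0.10 to 0.20). Neil3 (chromosome 8, 53586867 to 53639065) had 10.7, 12.4 and 11.4 CPM in Ground and 11.4, 11.8 and 10.6 in Space. The Neil3 groups overlapped almost fully, with a log2 fold change of -0.03 (SE 0.12, interval -0.31 to 0.25).

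Ung (chromosome 5, 114130386 to 114139323) removes uracil that arises by deamination of cytosine or by misincorporation. Its levels were 148, 189 and 178 CPM in Ground and 173, 187 and 154 in Space, with means of 172 ± 21.7 and 171 ± 16.5 CPM. The log2 fold change of Ung was -0.0045 (SE 0.11, interval -0.25 to 0.24). Ung was low in Ground-1 and Space-3 and high in Ground-2 and Space-2, so its spread lay within the groups. Apex1 (chromosome 14, 50924968 to 50927139) had 211, 237 and 249 CPM in Ground and 243, 239.7 and 212 in Space. Its log2 fold change was -0.0047 (SE 0.08, interval -0.19 to 0.18), and again Ground-1 and Space-3 were lowest. Of the exon bases of Apex1, 61.7% are shared with Pip4p1 on the opposite strand. Pip4p1 had 984 to 1440 counts per library against 4452 to 5896 for Apex1. How reads in the shared bases were counted is not given, so neither the size nor the direction of the error in Apex1 is known.

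Parp1 (chromosome 1, 180568924 to 180601254) had 823, 948 and 876 CPM in Ground and 879, 934 and 816 in Space. With 17537 to 21342 counts per library it was measured most deeply of the members, and its means of 882 ± 63.2 and 876 ± 59.3 CPM differed by a log2 fold change of -0.0094 (SE 0.08, interval -0.19 to 0.17). Xrcc1 (chromosome 7, 24546289 to 24573440), which holds Polb and the ligase Lig3 at the break, had 159, 178 and 166 CPM in Ground and 168, 170.4 and 159 in Space. Xrcc1 had the narrowest interval of the members, from -0.16 to 0.13 around a log2 fold change of -0.01 (SE 0.06). Polb (chromosome 8, 22628126 to 22653435) had 75.2, 77.4 and 82.3 CPM in Ground and 85.3, 75.3 and 77.1 in Space. The highest and the second lowest Polb values were both Space libraries, and the log2 fold change was 0.02 (SE 0.07, interval -0.14 to 0.18). The level ratio of Parp1 to Xrcc1 per length stayed between 5.64 and 6.04 in all 6 libraries, and that of Xrcc1 to Polb between 1.33 and 1.55. The size of such ratios depends on the length used.

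The intervals bound the size of the differences. For 9 of the 10 members the 95% interval stayed within 1.24-fold in either direction, and for Apex1, Parp1, Xrcc1, Polb and Neil2 within 1.15-fold. These intervals are not adjusted for the number of genes and treat the 6 libraries as unpaired. A p that misses the threshold does not show that the groups were equal.

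**Figure D3:**
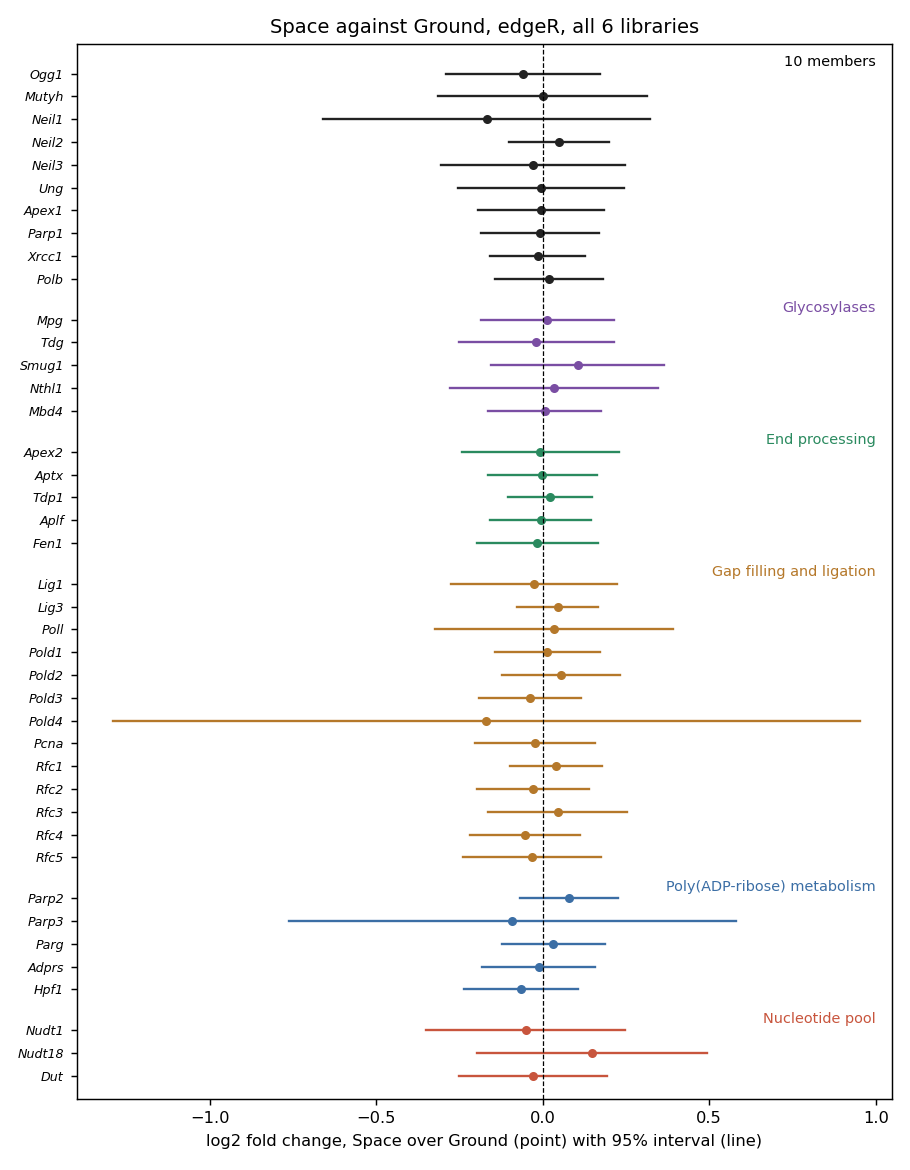
Log2 fold change of Space over Ground (points) with 95% intervals (lines) for the 10 members and 31 further genes of the pathway, grouped by role. Every interval shown includes 0, with wide ones for Pold4, Parp3 and Neil1.

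The rest of the pathway was followed in 33 further genes, all of them tested. None passed edgeR's test, 0 had an unadjusted p under 0.05, and 15 were above and 18 below 0 with a median log2 fold change of -0.0067. The 5 other glycosylases ran from Tdg (-0.02, SE 0.10), which removes mispaired thymine and oxidised forms of methylcytosine, to Smug1 (0.10, SE 0.11), a second uracil glycosylase. Of the 6 end-processing genes, 1 was above and 5 below 0, with Tdp1 (0.02, SE 0.05), which frees strand ends from trapped topoisomerase, at the upper end. Of the 33 genes, 3 had no overlap between the groups. The Space values of Smug1 and Parp2 lay above the Ground values (1.61% of all genes tested), and those of 1 gene lay below (1.98%). The 13 gap-filling and ligation genes lay between Pold4 (-0.17, SE 0.48), a small subunit of polymerase delta, and Pold2 (0.06, SE 0.08), another subunit. Among 5 genes of poly(ADP-ribose) metabolism, Parp2 (0.08, SE 0.06), which backs up Parp1, and Parp3 (-0.09, SE 0.29) marked the ends. Nudt1 (-0.05, SE 0.13), which clears oxidised nucleotides before they are built into DNA, and Nudt18 (0.15, SE 0.15) did so among 4 nucleotide pool genes.

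A further question was how far each member varied between libraries, whatever the group. For each gene the variance over the 6 libraries was divided by the variance that counting alone gives. The ratio was 0.589 for Neil2, 0.832 for Neil3, 1.07 for Ogg1 and 1.23 for Neil1, so 4 members varied about as much as counting error does. It was 4.91 for Polb, 6.28 for Xrcc1, 7.34 for Mutyh, 27.0 for Apex1, 38.7 for Ung and 73.6 for Parp1, beside a median of 4.12 over all genes tested. This ratio grows with depth, and in fold terms the highest library exceeded the lowest by 1.16-fold for Parp1, 1.18-fold for Apex1, 1.28-fold for Ung and 1.33-fold for Mutyh. On the log2 scale 8 of the 10 members had a smaller range than the median gene (0.39), the exceptions being Mutyh (0.41) and Neil1 (0.48). The range in turn is widened by counting error in genes with few counts, so a small range partly reflects depth.

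**Figure D4:**
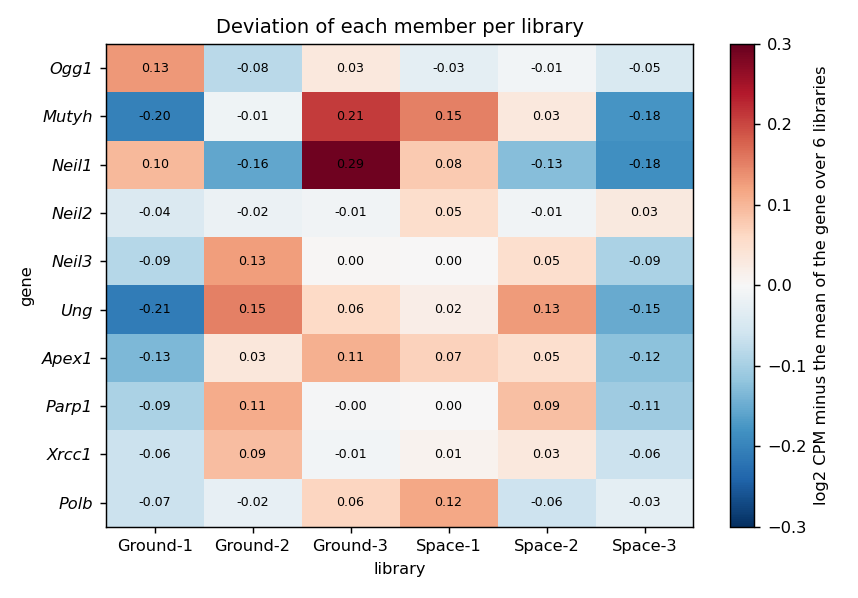
Log2 CPM of each member minus its mean over the 6 libraries (colour and printed value), with genes as rows and libraries as columns. Mutyh, Neil3, Ung, Apex1, Parp1 and Xrcc1 are lowest in Ground-1 and Space-3, while Ogg1 is highest in Ground-1.

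Several members ranked the libraries in the same order. Ground-1 and Space-3 were the lowest libraries for Mutyh, Neil3, Ung, Apex1, Parp1 and Xrcc1, which is 6 of the 10 members, and this order held in 19.7% of all genes tested. It also held in 17 of the 33 other pathway genes, 9 of them among the 13 gap-filling and ligation genes. At the upper end the members parted. Ground-2 and Space-2 were highest for Ung, Parp1, Xrcc1 and Neil3 (10.1% of all genes), and Ground-3 and Space-1 for Apex1, Mutyh and Polb (23.5% of all genes). These counts were made after the values had been seen. Ogg1 had its highest value in Ground-1, where the other glycosylase for oxidised guanine pairs, Mutyh, had its lowest. The level ratio per length of Ogg1 to Mutyh ran from 0.779 in Space-1 to 1.11 in Ground-1. The variance of Ogg1 was only 1.07 times that of counting, and that of Neil3 0.832 times. The order of the libraries for Ogg1 and Neil3 is therefore within counting error.

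Some other measures moved with this order. The summed level of 12 genes of cycling cells, which include Mki67, Top2a and the pathway gene Pcna, was 3130 CPM in Ground-1 and 3112 in Space-3 and 3587 to 3744 CPM in the other 4 libraries. Ground-1 and Space-3 were also the highest libraries for the macrophage, endothelial and Sertoli cell markers, all with low sums. The macrophage markers summed to 24.1 and 23.8 CPM there against 14.6 to 20.3 in the other 4 libraries. The endothelial markers summed to 22.0 and 20.5 against 11.5 to 15.3, and the Sertoli cell markers to 30.3 and 29.0 against 25.8 to 28.3. The feeder fibroblast markers, with a far larger sum, did not follow. They had 1062 CPM in Ground-1 and 960 in Space-3, and 853 to 1096 CPM in the other 4 libraries. Mitochondrial transcripts took 11.5% of counts in Ground-2 and 7.12% in Space-2, the highest shares, and the lowest were 2.51% in Space-1 and 2.81% in Space-3. The part of these measures in the member levels was not tested. Pold4 and Parp3 had the opposite order. Pold4 had 6.09 CPM in Ground-1 and 6.84 in Space-3 but 3.07 in Ground-3 and 1.61 in Space-1, a 4.26-fold span. Parp3 had 16.2 and 15.9 CPM in Ground-1 and Space-3 and 9.38 and 7.99 in Ground-3 and Space-1. The replicative ligase Lig1, named after its values were seen, followed Ung and Parp1, with 426 and 421 CPM in Ground-1 and Space-3 and 533 and 525 in Ground-2 and Space-2.

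Neil1 had the widest range of the members, and the genes nearest to it in pattern were Zfp37, Hoxb3 and Lrrc51. Their log2 CPM, centred on the mean of each gene, lay within a root mean square distance of 0.038, 0.052 and 0.052 of Neil1 over 6 libraries. Zfp37 had 8.03, 6.44 and 8.90 CPM in the Ground libraries and 7.87, 6.39 and 6.16 in the Space libraries. Because the spread of Neil1 was only 1.23 times its counting error, this likeness describes 6 values and no more.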

How the data were processed

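RNA-seq libraries of 6 GS cell samples, 3 titled Space and 3 Ground, were analysed. The deposited file is a table of unnormalized gene counts, 1 column per library with nothing pooled. The authors state in their methods that cutadapt trimming was followed by HISAT2 alignment to mm10, using GENCODE M21. The processing notes of the submitters list bcl2fastq 2.20, cutadapt 4.1, HISAT2 2.2.1 and HTSeq 2.0.2, without roles or strand setting, and the methods and labels name different kits and read layouts.

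The main test used edgeR 4.0.16 under R 4.3.3 (filterByExpr, TMM scaling, 2-sided quasi-likelihood F test without a block, Benjamini-Hochberg adjustment over 15104 genes, threshold 0.05). The SE was the log2 fold change divided by the square root of F, and intervals are 95%. CPM used TMM-scaled library sizes, and log2 CPM a prior count of 2. Exon lengths and gene positions came from GENCODE M21 (GRCm38), counted from 1. The symbol Adprs was matched as Adprhl2. Neighbours in level were compared by exact sign-flip tests over 6 libraries. The rule for named genes took all members, the extremes of each role in the pathway list, and the 3 genes nearest to the member of widest range. Alternatives included DESeq2 1.42.0 and limma-voom (limma 3.58.1). The procedure was tested on simulated counts. Results of 2 genes of the pathway list are not reported here by name. Members and lists were chosen with earlier results of these data known. Depth was 19015985 to 24110916 counts per library, and counting error limits Neil1 most.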

Additional observations from a re-analysis of the deposited data

How the results depend on the processing

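The counts of 0 genes, 0 members and 0 other pathway genes held in all 14 alternatives: RLE scaling, total counts, no filter, at least 10 counts in 3 libraries, DESeq2, limma-voom, scaling without mitochondrial genes, the replicate block and each fit without 1 library (0 to 0). Unadjusted counts of all genes under 0.05 ran from 45 with DESeq2 to 192 without a filter, and no member had an unadjusted p under 0.05 in any of them. Libraries of the same number did not deviate together. Correlations of deviations from the group means over 15104 genes were -0.54, 0.33 and -0.61 for numbers 1, 2 and 3, where 0.1 was required of each, and libraries 1 and 3 did not correlate best with their own number. The replicate block left 63 genes at an unadjusted p under 0.05 and 0 past the threshold. Ogg1 and Neil1 were below 0 and Neil2 above 0 in all 14 alternatives, but their size moved. Ogg1 ran from -0.11 without Ground-2 to -0.0054 without Ground-1, Neil1 from -0.28 without Ground-2 to -0.048 without Ground-3, and Neil2 from 0.034 without Space-1 to 0.066 without Space-2, with 0.085 for total counts. The other members changed sign near 0, and no member passed the test. Total counts gave 0.0065 for Neil3, 0.034 for Ung, 0.032 for Apex1, 0.027 for Parp1 and 0.022 for Xrcc1, with the median of all genes shifted to 0.033. Fits without 1 library ran from -0.096 to 0.12 for Mutyh, -0.080 to 0.027 for Neil3, -0.10 to 0.072 for Ung, -0.070 to 0.054 for Apex1, -0.058 to 0.046 for Parp1, -0.050 to 0.030 for Xrcc1 and -0.039 to 0.061 for Polb, and the cause was not tested. The number of neighbouring members in the same order in every library was 5, 6 with the longest transcript as length, and 5 to 7 without 1 library, where the smallest sign-flip p is 0.0625.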
